A study of Mus musculus with 5 samples.

Results

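The 9 genes described here encode transcription factors of granulocyte and monocyte commitment: the C/EBP family members Cebpa, Cebpb, Cebpd and Cebpe, the ETS factor PU.1 (Spi1), the zinc finger repressor Gfi1, the interferon regulatory factor Irf8, the Krüppel-like factor Klf4 and the Runt factor Runx2. They were taken by name from a table of 24399 genes, with the RefSeq transcript row of the highest count kept for each gene, and all 9 were present and passed the filter on low counts that left 14565 genes for testing. The RNA came from LSK cells of the bone marrow, which carry Sca1 and cKit and lack lineage markers, sorted by flow cytometry from C57BL/6 mice aged 12 months. This population mixes haematopoietic stem cells with multipotent progenitors. The mice carried a germline knockout allele or were wild type. No other allele or treatment is given for either group.

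Of the 5 libraries, 3 bear KO and 2 bear WT in their titles. For each KO title the genotype field gives a heterozygous genotype, while the series design names both heterozygous and homozygous knockout animals. Title and genotype field thus differ, and these libraries are called KO-labelled throughout. CPM are counts scaled to a common library total after composition scaling. Group values are means ± SD over the 3 KO-labelled or the 2 WT libraries.

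Library totals, with 1 row per gene, ran from 29964556 to 39691066 counts. Whether each library is a separate mouse or a pool of mice is not given in the sources used here, so the spread behind the tests may be technical. The stem and progenitor marker list, fixed to check the sort, had 0 of 11 genes past the test. Kit stood at 1086 to 1144 CPM in KO-labelled and 1205 to 1227 CPM in WT libraries. Ly6a, which encodes Sca1, stood at 90.45 to 104.5 CPM against 74.86 to 81.98 CPM. The groups did not overlap for 4 of the 11, against 32.8% of all tested genes. Kit and Slamf1 were lower and Ly6a and Hlf higher in the KO-labelled libraries. Markers of mature cells were low but present: the summed level of 8 granulocyte and macrophage markers was 112.3 to 146.6 CPM in KO-labelled and 186.3 to 214.5 CPM in WT libraries, and that of 7 mature erythroid markers was 33.6 to 41.9 CPM against 21.1 to 23.4 CPM. Of the other marker lists, 0 of 4 tested B cell and 0 of 6 T and NK cell genes passed. In the megakaryocyte list 2 of 5 genes passed, and in the stromal and endothelial list 1 of 6. These 3, Itga2b, Gp1ba and Pecam1, were lower in the KO-labelled libraries. The megakaryocyte genes Pf4 and Ppbp went the other way without overlap and did not pass (log2 fold changes 0.79 and 1.46). KO library 1 stood apart in transcript length: the 10% of genes with the longest transcripts lay 0.238 below the 10% with the shortest (difference -0.238 on the log2 scale), relative to the mean of all libraries, while in the other 4 libraries they lay 0.024 to 0.068 above. Fewer cells of a type and less RNA per cell cannot be told apart in such bulk libraries.

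As background, PU.1 and C/EBP-alpha open and activate the genes of myeloid progenitors, and their balance with factors such as GATA1 goes along with the choice between myeloid and erythroid fates. GFI1 and C/EBP-epsilon act in granulocyte development, whereas IRF8 and KLF4 act in the monocyte branch and IRF8 also in dendritic cells. GFI1 represses genes of the monocyte branch, and IRF8 restrains granulocyte output. C/EBP-beta acts when granulocyte production is raised under stress.

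Irf8 is the member whose result turns on the choice of libraries, so the sequence before its 2 RefSeq start sites is shown here. Both are from RefSeq, build GRCm38.p6, plus strand, 250 bases ending just before the start. Capitals mark matches to 3 of 6 motifs searched on both strands: AAATCA for GFI1, TTCNNNGAA for STAT factors, through which interferon acts, and TGNGGT for RUNX.
Irf8 start 1, chr8:120736108-120736357: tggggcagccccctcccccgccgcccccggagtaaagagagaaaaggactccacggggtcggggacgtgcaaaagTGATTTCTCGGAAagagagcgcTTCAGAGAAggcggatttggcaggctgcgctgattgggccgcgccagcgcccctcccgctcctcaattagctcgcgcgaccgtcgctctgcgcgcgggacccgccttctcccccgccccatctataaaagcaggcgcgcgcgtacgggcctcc
Irf8 start 2, chr8:120738389-120738638: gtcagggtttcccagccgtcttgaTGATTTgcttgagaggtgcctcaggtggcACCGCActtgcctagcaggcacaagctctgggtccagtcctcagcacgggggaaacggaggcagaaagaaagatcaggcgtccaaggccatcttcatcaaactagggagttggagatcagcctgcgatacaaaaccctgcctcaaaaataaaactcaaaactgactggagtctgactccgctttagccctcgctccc
In the first stretch a GFI1 match (TGATTT, the reverse complement) begins at -175 and runs into a STAT match (TTCTCGGAA) at -171, counted from the start site, and a further STAT match (TTCAGAGAA) begins at -153. In the second, a GFI1 match begins at -226 and a RUNX match (ACCGCA) at -197. Of 32851 promoter windows of 300 bases in the table, 14% held the GFI1 letters, 8.3% the STAT letters and 45.8% the RUNX letters. Of the members, 6 had windows in the table (8 windows), and Cebpd, Cebpe and Spi1 had none there. The letters TTNCGNAA for C/EBP (2.47% of all windows), GAGGAA for PU.1 (28.3%) and the interferon response element of the IRF factors (3.44%) were in 0 of the 8 windows. The Runx2 window held 5 RUNX matches. A match is only a string of letters, and the windows cover 250 bases before to 50 bases after a start. The deposited counts cannot separate the start sites: the 2 Irf8 rows agreed except for 2 counts in KO library 2. In GENCODE the protein-coding gene Gm20388, which is not among the counted genes, overlaps Irf8 on the same strand. Reads from shared stretches cannot be told apart. Cebpa and Gfi1 each overlap a gene on the opposite strand that is likewise not among the counted genes.

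None of the 9 factors passed the test between the groups. Here 0 of 9 members had an adjusted p under 0.05 in edgeR's quasi-likelihood test, against 1.97% of all tested genes (287 of 14565). At an unadjusted p under 0.05 there were 2 members, Spi1 and Irf8, against 13.8% of all genes. DESeq2 called 0 members and limma-voom with sample weights called 1, Irf8. The median log2 fold change of the members was -0.05, against 0.001 for all tested genes, and their median absolute log2 fold change was 0.27 against 0.17. The libraries of the groups did not overlap for 4 of 9 members, Cebpb, Cebpd and Spi1 with KO-labelled lower and Klf4 with KO-labelled higher. Among all tested genes 32.8% did not overlap.

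**Figure D1:**
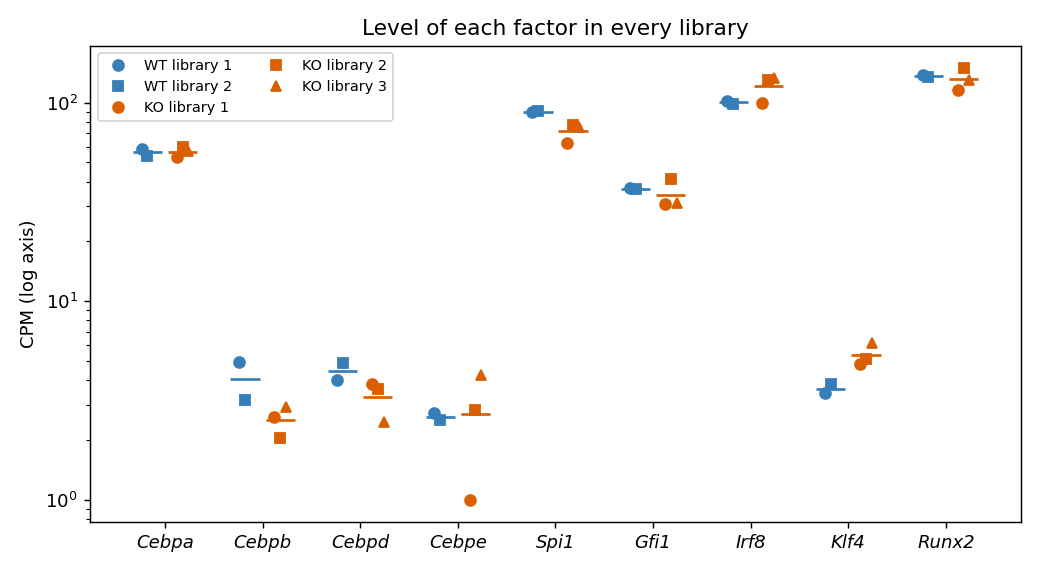
Level of the 9 factors in CPM (log axis) in each of the 5 libraries, blue for WT and orange for KO-labelled, with a line at each group mean. Spi1, Cebpb and Cebpd lie lower and Klf4 higher in every KO-labelled library than in either WT library, and Cebpe spans 0.997 to 4.25 CPM within the KO-labelled group.

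Divided by transcript length, the members fell into an abundant and a scarce set. In WT libraries Spi1 stood at 44.0 and 44.6 CPM per kilobase and Irf8 at 44.9 and 43.6. These did not differ beyond their spread. Cebpa (22.2 and 20.6) and Runx2 (21.4 and 20.9) followed and likewise overlapped, and Gfi1 had 12.98 and 12.77. The scarce set was Cebpb at 3.28 and 2.11, Cebpe at 2.20 and 2.02, Klf4 at 1.13 and 1.26 and Cebpd at 1.07 and 1.30 CPM per kilobase. Within it Cebpb overlapped Cebpe, and Klf4 overlapped Cebpd. Lengths came from GENCODE transcripts matched to the kept rows, not from the annotation used for counting, so the order is approximate. In the KO-labelled libraries the top pair came apart: Irf8 ran from 43.8 to 58.4 and Spi1 from 30.7 to 38.0 CPM per kilobase.

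PU.1, encoded by Spi1, is the ETS factor needed for both the granulocyte-monocyte and the lymphoid lineages. Spi1 had 62.4, 77.2 and 75.8 CPM in KO libraries 1 to 3, against 89.5 and 90.8 CPM in WT libraries 1 and 2. Every KO-labelled library was below both WT libraries, and KO library 1 was the lowest. The means were 71.8 ± 8.19 against 90.2 ± 0.875 CPM, a log2 fold change of -0.33 ± 0.11 (SE; 95% interval -0.57 to -0.09). This did not pass over all genes (unadjusted p = 0.011, adjusted p = 0.189 in edgeR's quasi-likelihood test). It had the smallest p of the members, and 5.79% of all tested genes had a p as small or smaller. Across all 14 alternative analyses the estimate stayed between -0.39 and -0.24, and the adjusted p between 0.111 and 0.646.

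Irf8 showed the reverse arrangement, and here the KO-labelled libraries were split. Its levels were 99.3, 131 and 132 CPM in KO libraries 1 to 3, and 102 and 99.0 CPM in WT libraries 1 and 2. KO libraries 2 and 3 were above both WT libraries, and KO library 1 was within the WT range. The log2 fold change was 0.27 ± 0.12 (95% interval 0.004 to 0.53; unadjusted p = 0.0473, adjusted p = 0.355 in edgeR's quasi-likelihood test). Without KO library 1 it was 0.39 ± 0.08 with an adjusted p of 0.00774, and with limma-voom and sample weights 0.34 ± 0.10 with an adjusted p of 0.0451. An offset for the length trend left it at 0.26 (adjusted p = 0.365). Over the 14 alternatives the adjusted p ran from 0.00774 to 0.72.

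Klf4, a zinc finger factor induced in the monocyte branch, was scarce and stood higher in the KO-labelled libraries. It had 4.84, 5.14 and 6.15 CPM in KO libraries 1 to 3 (175, 201 and 243 counts), against 3.44 and 3.81 CPM in WT libraries 1 and 2 (103 and 149 counts). The groups did not overlap, with KO library 3 the highest. The log2 fold change of 0.57 ± 0.31 did not pass (95% interval -0.10 to 1.24, adjusted p = 0.454 in edgeR's quasi-likelihood test). It lay above 0 in all 14 alternatives, between 0.46 and 0.65, and passed in 0 of them.

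Cebpa, which drives entry into the granulocyte-monocyte lineage, was the steadiest member. Its levels were 53.4, 59.7 and 56.9 CPM in KO libraries 1 to 3, against 58.3 and 54.1 CPM in WT libraries 1 and 2, with the ranges interleaved. The 95% interval of its log2 fold change ran from -0.22 to 0.25. The sign of that estimate changed between alternatives, from -0.04 without WT library 2 to 0.07 without WT library 1.

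Cebpb and Cebpd, which act in stress-induced and inflammatory myeloid gene expression, were scarce and stood lower in the KO-labelled libraries without passing. Cebpb had 2.60, 2.05 and 2.94 CPM in KO libraries 1 to 3, against 4.93 and 3.17 CPM in WT libraries 1 and 2. WT library 1 was above the rest, and WT library 2 was just above KO library 3. The log2 fold change was -0.68 ± 0.39 (95% interval -1.52 to 0.17, adjusted p = 0.490 in edgeR's quasi-likelihood test), but -0.32 without WT library 1 and -0.96 without WT library 2. Cebpd had 3.85, 3.61 and 2.46 CPM against 4.002 and 4.86 CPM, with KO library 3 the lowest and KO library 1 close to WT library 1. Its log2 fold change was -0.43 ± 0.35 (95% interval -1.19 to 0.34, adjusted p = 0.659 in the same test). Cebpb and Cebpd had 80 to 190 counts per library, and their intervals include 2-fold lower as well as no difference. In GENCODE both overlap a gene on the opposite strand, Tmem189 (944 to 1256 counts) and Spidr (1985 to 2588 counts). Whether strand was used in counting is not given in the sources used here, so reads of such pairs cannot be told apart.

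Cebpe, which switches on secondary granule genes late in granulocyte development, varied most within a group. It had 36, 111 and 168 counts in KO libraries 1 to 3, or 0.997, 2.84 and 4.25 CPM, against 2.73 and 2.51 CPM in WT libraries 1 and 2 (82 and 98 counts). KO library 1 was the lowest of all 5 libraries and KO library 3 the highest, and the coefficient of variation was 60.5% in KO-labelled against 6.1% in WT libraries. The 95% interval of the log2 fold change, -1.13 to 1.21, is wide enough to hold a 2-fold difference in either direction. The estimate was 0.04 with all libraries, 0.44 without KO library 1 and -0.44 without KO library 3.

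Gfi1, the repressor that favours granulocyte over monocyte development, had 30.8, 41.0 and 31.2 CPM in KO libraries 1 to 3, against 37.1 and 36.5 CPM in WT libraries 1 and 2. KO library 2 was above both WT libraries and the other two were below them. The log2 fold change was -0.10 ± 0.15 (95% interval -0.42 to 0.22, adjusted p = 0.832 in edgeR's quasi-likelihood test). Its 2 RefSeq rows carried nearly the same reads, the lower having 99.8% of the higher.

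Runx2, best known from bone formation and also expressed in blood progenitors, had 116, 150 and 129 CPM in KO libraries 1 to 3, against 138 and 135 CPM in WT libraries 1 and 2. Both WT values lay inside the KO-labelled range. The log2 fold change was -0.05 ± 0.11 (95% interval -0.29 to 0.18), and it became 0.03 without KO library 1 and 0.003 with the length offset. Of its 8 RefSeq rows, 7 carried 94.3% to 100% of the reads of the kept row, and the non-coding row NR_073425 carried 15.7%. Runx2 has antisense transcripts and the gene Supt3 (1243 to 1699 counts) on the opposite strand in GENCODE, which limits it as above.

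**Figure D2:**
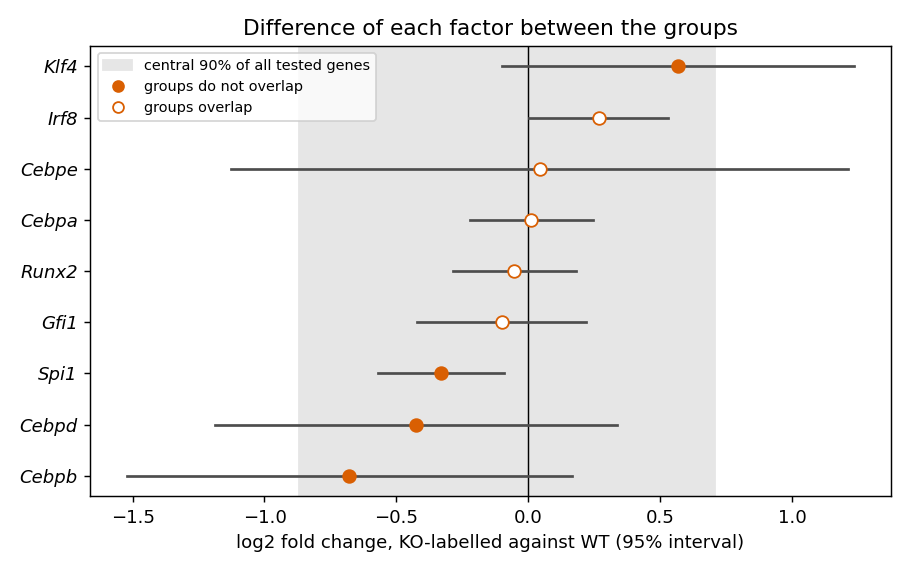
Log2 fold change of each factor, KO-labelled against WT, with its 95% interval; filled points mark factors whose groups did not overlap, and the grey band spans the 5th to 95th percentile of all tested genes. All 9 estimates lie within the band, which runs from -0.87 to 0.71, and the intervals of Cebpa, Runx2 and Spi1 are the narrowest.

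**Figure D3:**
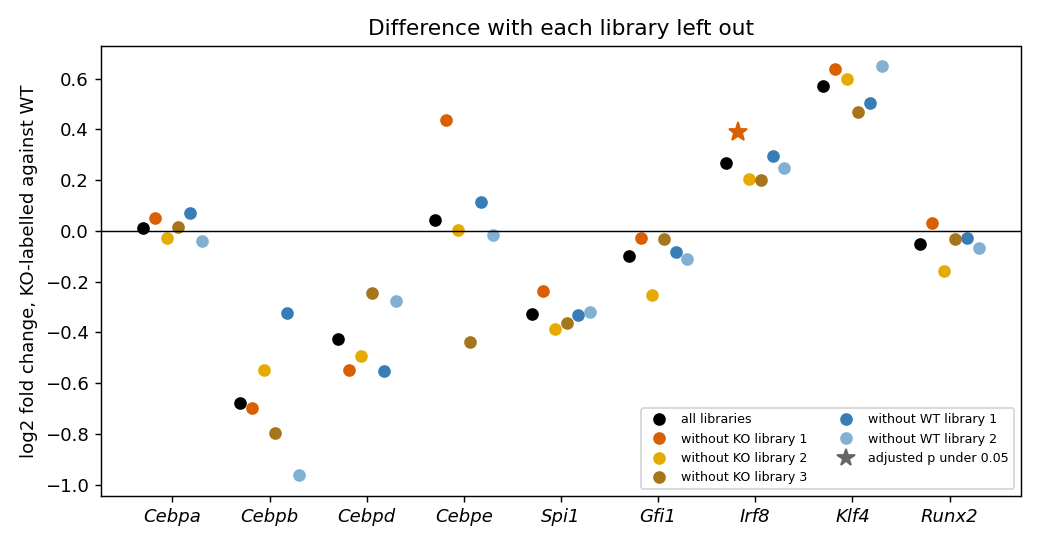
Log2 fold change of each factor with all libraries (black) and with each library left out in turn; a star marks an adjusted p under 0.05. The 1 star is Irf8 without KO library 1, at 0.39, and Cebpe moves between -0.44 and 0.44.

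Ratios of factors within a library do not depend on scaling between libraries, and 7 pairs were compared. With 3 against 2 libraries the two-sided exact permutation test cannot give less than 0.2. The groups did not overlap in 5 of the 7 pairs, each with an exact permutation p of 0.2 (0.28 after Benjamini-Hochberg adjustment over the 7). The share of non-overlap among ratios of other gene pairs was not computed, and among single genes it was 32.8%. The pairs also share genes, and Spi1, Cebpb and Klf4 did not overlap alone, so the 5 are not separate results. The widest shift was that of Spi1 to Gata1, the erythroid and megakaryocytic factor that PU.1 opposes. Its log2 ratio was 0.90, 1.39 and 0.71 in KO libraries 1 to 3, against 2.01 and 1.81 in WT libraries 1 and 2, a difference of -0.91. Both genes contributed: Spi1 stood lower, and Gata1 stood higher at 36.3 ± 8.79 against 24.0 ± 2.60 CPM, with neither past the test alone. The summed level of the mature erythroid markers given above was also higher in every KO-labelled library than in either WT library, although 6 of the 7 did not pass alone. Their part in this ratio was not tested.

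The ratio of Gfi1 to Irf8, which sets a granulocyte against a monocyte factor, had log2 values of -1.69, -1.67 and -2.08 in KO libraries 1 to 3, against -1.46 and -1.44 in WT libraries 1 and 2. All KO-labelled libraries were lower, with a difference of -0.37. The difference was 0.35 for Cebpa to Spi1, 0.30 for Klf4 to Irf8 and -0.66 for Cebpb to Cebpa, each without overlap. Cebpe to Irf8 (difference -0.44, exact permutation p = 0.8) and Cebpa to Gata2 (-0.07, exact permutation p = 0.6) overlapped.

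The ratio of Irf8 to Spi1 was added after the levels had been seen, and is a description. Its log2 value was 0.67, 0.76 and 0.81 in KO libraries 1 to 3, against 0.19 and 0.12 in WT libraries 1 and 2, a difference of 0.59. KO library 1, which had the lowest level of both genes within its group, sat beside the other KO-labelled libraries in this ratio.

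**Figure D4:**
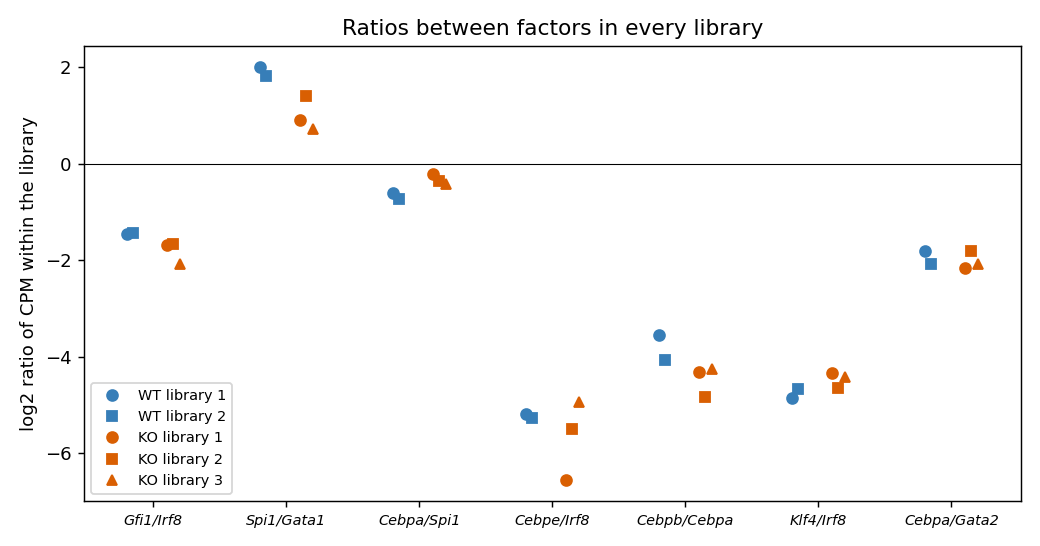
Log2 ratio of CPM between the members of each of 7 pairs of factors within a library, blue for WT and orange for KO-labelled. Spi1 to Gata1 lies between 0.71 and 1.39 in KO-labelled and between 1.81 and 2.01 in WT libraries, and Cebpe to Irf8 is spread over the KO-labelled group.

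Of the relatives and partners of the factors, those that passed were all higher in the KO-labelled libraries. Of 58 such genes, all tested, 4 rose and 0 fell, with a median log2 fold change of 0.09. Background shares were 0.79% higher and 1.18% lower. Irf4, the relative of Irf8 that acts in lymphoid and dendritic cells, rose 3.16-fold, with 7.34, 8.65 and 13.7 CPM in KO libraries 1 to 3, against 3.001 and 3.25 CPM in WT libraries 1 and 2 (adjusted p = 0.0174, edgeR). Irf7, which amplifies type I interferon, rose 1.60-fold (44.2 ± 6.97 against 27.6 ± 2.97 CPM, adjusted p = 0.0423, edgeR). Irf9 did not pass, at 131 ± 7.08 against 103 ± 1.83 CPM (adjusted p = 0.0823, edgeR), nor did Irf1, Irf2, Irf3 and Irf5, whose log2 fold changes lay between -0.08 and 0.28. The erythroid relatives of Gfi1 and Klf4, Gfi1b (1.71-fold) and Klf1 (2.83-fold), were the other two that rose. The summed mature erythroid markers moved with them, at 33.6 to 41.9 CPM in KO-labelled against 21.1 to 23.4 CPM in WT libraries, and their part in these changes was not tested. Without KO library 3, Klf1, Irf4 and Irf7 did not pass (adjusted p = 0.0774, 0.107 and 0.201, edgeR), while Gfi1b did (0.0393). With replicate number as a block, Irf4 and Irf7 did not pass (0.0718 and 0.169). Only KO library 3 bears the number 3, so the block gives it no weight in the group difference. The block result thus overlaps with leaving that library out. Irf7 was also lost without KO library 2 (0.0879), with summed transcript rows (0.0503) and without robust settings (0.0569). All 4 calls were lost when either WT library was left out.

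Among the nearest relatives of the C/EBP and Runt members none passed. Cebpg, a C/EBP protein without a typical activation domain, had 105, 119 and 103 CPM in KO libraries 1 to 3 against 94.7 and 89.3 CPM in WT libraries 1 and 2 (log2 fold change 0.25 ± 0.10, adjusted p = 0.286 in edgeR's quasi-likelihood test). Runx1, the main Runt factor of blood stem cells, had 177, 195 and 217 CPM against 233 and 232 CPM (-0.24 ± 0.09, adjusted p = 0.268), and Runx3 stood at 149 against 144 CPM. Klf7 had 1.02, 2.41 and 2.61 CPM against 4.402 and 4.323 CPM, also without passing (adjusted p = 0.284). For Cebpg, Runx1 and Klf7 the groups did not overlap, as for 24 of the 58 listed genes and 32.8% of all tested genes. Myb and Etv6, abundant regulators of progenitors, had log2 fold changes of 0.16 and -0.21, also without overlap and without passing.

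Several receptor genes of myeloid growth factors fell. Of 13 such receptor chains, 5 fell and 0 rose, with a median log2 fold change of -0.40 against 0.001 for all genes. Csf2rb fell 2.10-fold and its neighbour and near copy Csf2rb2 fell 2.34-fold. As shared reads may be split between them, each is uncertain. Il6st, the common chain of interleukin-6 type receptors, fell 1.45-fold, the interleukin-1 receptor Il1r1 1.54-fold and the G-CSF receptor Csf3r 1.32-fold. The M-CSF receptor Csf1r, a classic PU.1 target, had 23.7, 33.9 and 33.1 CPM in KO libraries 1 to 3, against 51.7 and 43.1 CPM in WT libraries 1 and 2 and did not pass (adjusted p = 0.0674, edgeR). The summed mature granulocyte and macrophage markers were lower alongside the receptors, at 112.3 to 146.6 CPM in KO-labelled against 186.3 to 214.5 CPM in WT libraries, and their part in the receptor result was not tested. The most abundant of them was Itgam, at 38.7, 54.6 and 85.9 CPM in KO libraries 1 to 3 against 96.4 and 91.6 CPM in WT libraries 1 and 2. For Cxcr2, Adgre1 and Vcam1 the groups overlapped.

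A few genes of the granulocyte lineage fell. In the list of 16 primary granule and early granulocyte genes 3 fell and 0 rose (median log2 fold change -0.34). They were Hp (1.90-fold) and the serine protease genes Prtn3 (1.84-fold) and Ctsg (1.59-fold). Hp encodes haptoglobin, which is not a primary granule protein. Mpo, myeloperoxidase, had 2219, 2386 and 2868 CPM in KO libraries 1 to 3 against 3442 and 3102 CPM in WT libraries 1 and 2, and did not pass (adjusted p = 0.0747, edgeR). In the list of 15 secondary and tertiary granule genes 2 fell and 0 rose, with a median of -0.74. The 2 were S100a8 and S100a9, which encode calprotectin, a mainly cytosolic complex. No other gene of that list passed. The C/EBP-epsilon targets Ltf and Camp had log2 fold changes of -0.64 and -0.84 without passing. Of the 15 genes, 2 had estimates above 0, Ltb4r1 at 0.012 and Mmp8. Mmp8 had 5.70, 2.33 and 2.13 CPM in KO libraries 1 to 3 against 1.73 and 0.998 CPM in WT libraries 1 and 2. Its log2 fold change of 1.31 did not pass (adjusted p = 0.307, edgeR). The summed level of the 8 mature granulocyte and macrophage markers, given above, was lower in every KO-labelled library than in either WT library. None of the 8 was at 0 in every library, 0 passed the test, and 5 of them (Ltf, Camp, Ngp, Mmp9 and Cxcr2) are among these 15 genes. Their part in the result was not tested.

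Monocyte and dendritic cell genes went both ways. Of 24 tested, 2 rose and 1 fell, and the median was 0.07. The protease Ctss rose 1.64-fold (60.4, 73.0 and 82.1 CPM in KO libraries 1 to 3 against 48.4 and 39.5 CPM in WT libraries 1 and 2), and Ly6c2 rose 1.45-fold, while the clotting factor F13a1 fell 1.45-fold. Without KO library 3, Ctss and Ly6c2 did not pass (adjusted p = 0.108 and 0.176, edgeR), while F13a1 did (0.0424). Ly6c2 was also lost with summed transcript rows (0.0811), without robust settings (0.0551) and with the length offset (0.0524). Siglech, a marker of plasmacytoid dendritic cells, stood at 5.79, 4.02 and 2.76 CPM against 1.37 and 1.36 CPM (adjusted p = 0.101, edgeR). Without WT library 1 or WT library 2, 0 genes of the 5 lists passed, where all genes gave 6 and 18 calls.

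**Figure D5:**
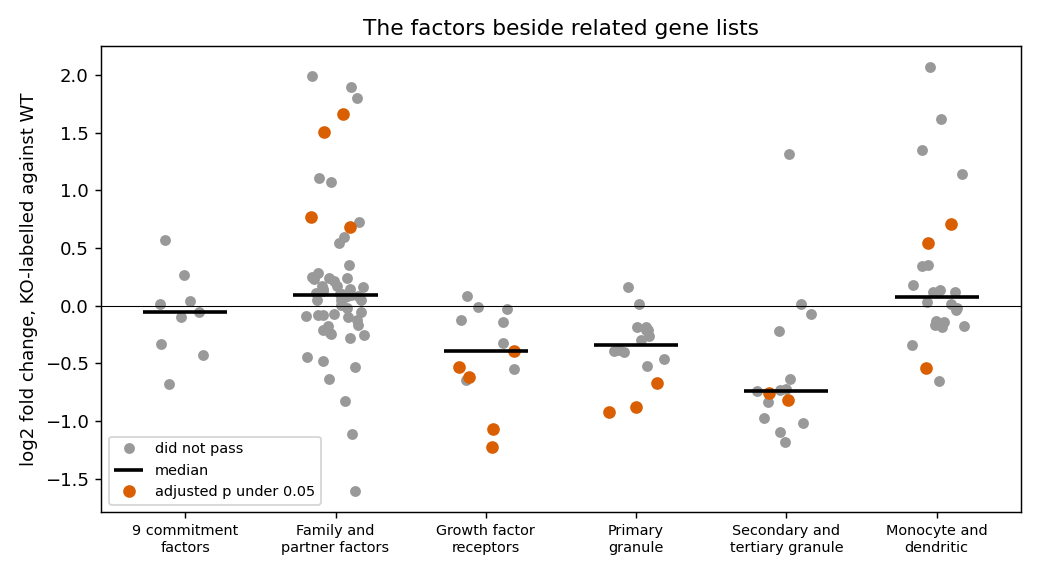
Log2 fold change, KO-labelled against WT, of the 9 commitment factors and of the tested genes of 5 related lists; orange points passed at an adjusted p under 0.05 and black bars are medians. The medians are -0.05 for the factors, 0.09 for relatives and partners, -0.40 for receptors, -0.34 for primary and -0.74 for secondary granule genes, and 0.07 for monocyte and dendritic cell genes.

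For the 2 members with the smallest p, the genes with the most similar profile over the 5 libraries were sought among 9781 genes of at least 10 CPM, by Euclidean distance between centred log2 CPM. Spi1 was nearest to Dhx35 (0.052), Klhl24 (0.063) and Zfp362 (0.067), and Irf8 to Tmem199 (0.072), Unc119b (0.089) and Fbrs (0.106). With 5 libraries such likeness is common: 4368 genes lay within 0.5 of Spi1 and 4714 within 0.5 of Irf8.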

How the data were processed

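Libraries of mRNA were made with a stranded kit, per the labels' protocols. The authors deposited a table of raw counts, with 33862 RefSeq transcript rows and 5 columns. STAR, Subread 1.4.5-p1, featureCounts and the build mm9 (NCBIM37) are named in the submitters' processing notes; the settings of counting were not given in the sources used here. Symbols came from RefSeq (GRCm38; 33485 rows) and GENCODE M21 (188 rows), 189 rows kept their IDs, and the row with the most counts was kept per gene. Groups came from the titles. All 14565 genes passing filterByExpr were tested together with edgeR 4.0.16 (R 4.3.3): TMM scaling, robust quasi-likelihood test, two-sided, Benjamini-Hochberg threshold 0.05, common biological coefficient of variation 18.9%. The SE is the coefficient divided by the root of F. Log2 ratios and distances used log2 CPM with a prior count of 2. The test was checked on simulated counts. Alternatives used DESeq2 1.42.0, limma 3.58.1, other scalings, filters and libraries. The members and lists were chosen with earlier results of these data known. Named genes were the members, the ratio partners, up to 4 called genes per list with the smallest p, and the 3 nearest profiles of 2 members; others were named after their values were seen. A gene and the result that needs it are not reported here.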

Additional observations from a re-analysis of the deposited data

How the results depend on the processing

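All 9 members, 7 ratios, 5 lists and the count over all genes were recomputed. Cebpb, Cebpd, Spi1, Gfi1, Irf8 and Klf4 kept their sign in all 14 alternatives. The number of members changed was 0 except 1, Irf8, with limma-voom and sample weights (log2 fold change 0.34) and without KO library 1 (0 to 1 with 1 library left out; Irf8 0.20 to 0.39). Signs turned for Cebpe with the replicate block (-0.61), for Cebpa (-0.001) and Runx2 (0.003) with the length offset, added after the data were seen, and with 1 library left out for Cebpa (-0.041 to 0.072), Cebpe (-0.44 to 0.44), Runx2 (-0.159 to 0.031), Cebpe to Irf8 (-0.798 to 0.012) and Cebpa to Gata2 (-0.20 to 0.06); the cause was not tested.

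Genes changed over all numbered 287, but 524 with DESeq2, 624 with limma-voom, 455 with no count filter, 160 with the replicate block and 6 to 675 with 1 library left out. Calls among relatives and partners were 4, but 2 with the replicate block and 0 to 9 with 1 library left out. Receptors had 5, but 3 with summed transcript rows, 2 with the replicate block and 0 to 6 with 1 left out. Primary granule genes had 3, but 5 with DESeq2, 5 with no count filter, 6 with the replicate block and 0 to 4 with 1 left out. The secondary and tertiary granule list had 2, but 5 with DESeq2, 5 with limma-voom, 4 with no count filter and 0 to 6 with 1 KO library left out. Monocyte and dendritic cell genes had 3, but 5 with DESeq2, 5 with no count filter and 0 to 4 with 1 left out. Leaving out a WT library leaves 1, assumed to vary like the others.

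The groups share numbers 1 and 2, but nothing says that a number marks a shared animal or batch. Only KO library 3 is numbered 3, so the replicate block gives it no weight and overlaps with leaving it out. Deviations of same-numbered libraries correlated at 0.043 and 0.017, and those of KO library 3 and WT library 2 at 0.038. With 2 WT libraries the deviations mirror each other, so these values are tied and cannot decide whether numbers mark pairs. Low counts limit Cebpb, Cebpd, Cebpe and Klf4.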

Other observations

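Among the partner factors, Jun, Fos and Egr1, singled out after their values were seen, split the KO-labelled libraries the way Irf8 did. They are immediate early genes, which cells switch on within a short time of a stimulus. Jun had 36.8, 163 and 177 CPM in KO libraries 1 to 3, against 28.5 and 34.4 CPM in WT libraries 1 and 2. Fos had 14.8, 74.5 and 92.0 CPM against 16.3 and 18.4 CPM, and Egr1 35.7, 94.6 and 118 CPM against 37.5 and 41.2 CPM. KO library 1 was near the WT libraries for these 3 genes, and KO libraries 2 and 3 were above them. Egr2, of the same class but barely expressed, did not show this split, with 0.498, 0.461 and 0.0506 CPM against 0.10 and 0.0767 CPM, nor did Klf10, with 87.4, 73.1 and 72.9 CPM against 85.3 and 81.4 CPM. Jun, Fos and Egr1 did not pass (adjusted p = 0.482, 0.557 and 0.568 in edgeR's quasi-likelihood test), and their part in the Irf8 result was not tested.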
